A study of Arabidopsis thaliana with 42 samples.

Results

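The transcripts described here fell to low levels in wild-type Arabidopsis seedlings between 15 and 30 min at 44 °C, and stood near their unheated levels when cycloheximide, an inhibitor of translation elongation, was present. They are 70 genes of 27655 listed. They were chosen from the measured values themselves, with 1 added to each group mean of normalized counts summed per gene. A member stood at 100 or more in unheated wild type, above 25% of that level after 15 min of heat, at or below 25% after 30 min, and at 70% or more after 30 min of heat with cycloheximide. Of the 13901 genes at 100 or more before heat, 295 met both conditions on heat alone, so the cycloheximide condition divided these into the 70 members and 225 genes lost alike but not kept to 70%. What the rule used is given below as description, without tests. The tests rest on the mutant series and on the groups at 45 and 90 min, which the rule did not read.

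Levels of an mRNA reflect its synthesis and its decay. Cycloheximide holds ribosomes on the mRNA, which stops decay that needs translation, among it nonsense-mediated decay (NMD), the removal of transcripts with an early stop codon, and it also stops the making of short-lived proteins that act on synthesis or decay. Many short-lived plant mRNAs, with those of the auxin-induced Aux/IAA repressors as the classic case, are known to accumulate when translation is blocked.

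Transcripts were measured by stranded mRNA sequencing of whole 10-day-old seedlings of the Columbia-0 ecotype, in 14 groups of 3 libraries. The heat plus cycloheximide groups, wild type in liquid MS medium with 10 µg/L of the drug per the labels (a unit not checked here), were sampled at 15, 30, 45 and 90 min of 44 °C. The double mutant upf3-1upf1-5, called upf here and impaired in NMD, was sampled before heat and at the same 4 times in medium without the drug. Wild type without the drug was sampled likewise. Seedlings were moved to the liquid in the morning and heated in the light, and the labels call the 3 libraries of a group biological repeats, each from pooled seedlings. No group had cycloheximide without heat and no unheated group was sampled after 0 min, so the drug's effect is that in heated seedlings, and heat cannot be told apart from time in the medium. In whole seedlings fewer cells of a type and less RNA per cell cannot be told apart either.

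Summed normalized counts ran from 14.7 M to 31.0 M per library (M, megacounts) and were larger after heat, with 27.7 ± 1.46 M at 90 min in wild type against 16.2 ± 0.400 M before heat (mean ± SD, n = 3). The values carry no read number, so no counting interval could be given. The members' share of that total was 0.286 ± 0.0202% at 30 min with cycloheximide and 0.0419 ± 0.000603% at 30 min of heat alone, against 0.379 ± 0.0303% before heat (mean ± SD, n = 3). When libraries were scaled to equal totals in place of the deposited scaling, 153 genes met the rule and 33 of the 70 were among them, so the list depends on the scale. UPF1 (AT5G47010), the helicase of NMD, stood at 424.5 to 806.5 normalized counts over the 15 upf libraries and at 1298 to 2616 over the 27 of wild type. UPF3 (AT1G33980), its exon-junction-linked cofactor, stood at 104 to 198 in upf and at 460.5 to 1039 in wild type. A sum over 6 shoot markers was 461614 or more in every library, with all 6 above 0 in every group.

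A sum over 6 root markers (PYK10, TIP2-3, COBL9, RHS19, PIP2-4 and CASP1) moved with some of the results below. Its median library stood at 35667, 32004, 16161 and 4431 normalized counts at 15, 30, 45 and 90 min with cycloheximide. In upf it was 27973 before heat and 20063, 8590, 4867 and 3218 at the same times. In wild type it was 31783 before heat and then 35053, 13893, 10477 and 6259. All 6 markers were above 0 in every group. The part of root transcripts in the results was not tested. A sum over 4 markers of ungerminated seed, all above 0 in every group but AT2S3 at 45 min of heat alone, had higher medians in upf. Its median library stood at 9402 normalized counts before heat in upf and at 1696.5, 4421, 1630 and 2505 at 15, 30, 45 and 90 min, against 687.5 before heat in wild type and 524, 1209, 89 and 212 at these times. The ranges overlapped before heat (5664.5 to 9451.5 in upf, 175.5 to 8177 in wild type) and at 30 min, and did not overlap at 15, 45 or 90 min.

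**Figure D1:**
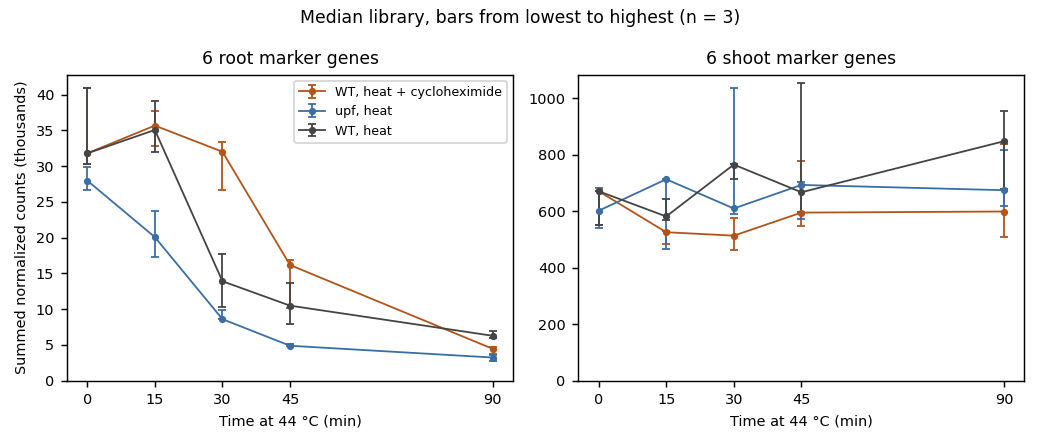
Summed normalized counts of 6 root markers (left) and 6 shoot markers (right) against time at 44 °C, as the median library with bars from the lowest to the highest of 3; the unheated wild-type value starts both wild-type lines. The root sum at 90 min with cycloheximide, 4431, lies below that at 90 min of heat alone, 6259, while at 30 min it lies above it (32004 against 13893).

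Levels of the members before heat ran from 102 to 14410 normalized counts, with a median of 290. Most genes list a single transcript (55 of 70), and 69 lie on the nuclear chromosomes, 14 on chromosome 1, 10 on chromosome 2, 14 on chromosome 3, 11 on chromosome 4 and 20 on chromosome 5. The remaining one, ATCG01000, had no match in the annotation and was erratic. It was listed at 0, 358 and 0 in the 3 unheated wild-type libraries and at 0, 983.5 and 0 after 15 min. It met the rule through single libraries, and it was called in no test below.

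The median member stood at 101, 85.9, 67.0 and 65.9% of its unheated wild-type level at 15, 30, 45 and 90 min with cycloheximide, against 48.1, 19.4, 16.5 and 17.0% with heat alone. The rule set bounds on both values at 30 min, with and without the drug, and on the heat-alone value at 15 min. It likewise held the genes lost alike but not kept to under 70% at 30 min with the drug. With heat alone 62 members stood at or below 25% at 45 min and 55 at 90 min. With the drug the members stood near the unheated level at 15 min and spread widely afterwards. At 90 min with cycloheximide 41 of 70 were at 50% or more of the unheated level and 12 at or below 25%. The genes lost alike but not kept stood at 68.9, 49.2, 39.6 and 33.2% with cycloheximide, so they too were above their heat-alone medians of 39.7, 19.5, 15.4 and 14.9%. The 90 genes already at or below 25% after 15 min of heat stood at 55.7, 33.7, 30.6 and 33.5% with the drug. Over all genes at 100 or more before heat the medians were between 92.0 and 97.6% in these groups.

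**Figure D2:**
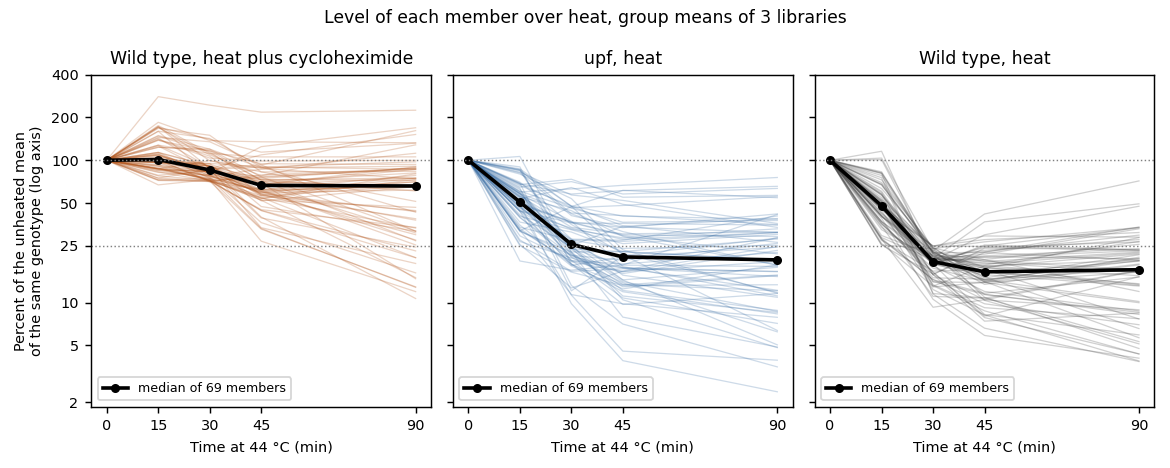
Level of 69 members (thin lines, all but ATCG01000) as a percent of the unheated mean of the same genotype on a log axis, against time at 44 °C; the thick line is the median, and dotted lines mark 25% and 100%. The medians with cycloheximide stay above 60% while individual members range from 10.7 to 225% at 90 min; in upf and in wild type without the drug the medians are near 20% or below from 45 min on.

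Genes just inside and outside the bounds differed little. AT2G47560, a RING finger protein, had 103 in unheated wild type after 1 was added, and TRM28 had 98.8. PKS1 and AT5G62280 each kept 25.4% at 15 min and AT5G50760 kept 23.8%. HAT3 kept 24.97% and AT1G60560 24.95% at 30 min, and AT5G48900 kept 25.5%. With cycloheximide TRM25 stood at 70.4% at 30 min and COL2 at 69.9%.

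The upf series asked whether the loss was seen in libraries the rule did not use and in seedlings impaired in NMD. It was. Genes are called higher or lower at an adjusted p under 0.05 in limma, taken over the 20747 genes tested, together with a change of 2-fold or more on the log2(value + 1) scale. All 70 members passed the filter on low values. At 15 min of heat 33 members had fallen in upf, against 4.65% of all genes tested. At 30 min 62 had fallen (13.7% of all genes), at 45 min 63 (17.7%) and at 90 min 63 (20.1%). None had risen at any of these times, when 8.03%, 10.7%, 11.4% and 11% of all genes had. The median log2 change of the members was -0.98, -1.97, -2.32 and -2.36 at 15, 30, 45 and 90 min, beside -0.04, -0.07, -0.10 and -0.11 over all genes tested. Between 15 and 30 min 25 members fell further (3.48% of all genes), or 42 with libraries scaled to equal totals. All 3 libraries at 30 min lay below all 3 unheated ones for 67 members, against 33.7% of all genes. The 225 genes lost alike but not kept did as the members did, with 212 fallen at 30 min.

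The 6 deepest losses in upf at 30 min were those of AT4G11320 (a papain-type cysteine protease), LAC3 (a laccase), AT5G41400 (a RING finger protein), RWP1 (a feruloyl transferase of suberin), AT1G61590 (a protein kinase) and GLL22 (a GDSL lipase), from -3.36 to -2.96 on the log2 scale. AT4G11320 had 182.5, 208.5 and 267.5 normalized counts at 30 min in upf, against 2285, 2166 and 2275.5 before heat. The groups lay far apart, and the fall was 3.36 on the log2 scale (SE 0.30, limma adjusted p = 9.9e-12). By 90 min only 48, 58 and 50 were left in upf. The transcript shares sequence with related protease genes, so its counts may be divided among them.

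Of the 8 members not called at 30 min in upf, AT5G55580 and AT1G75490 changed by under 2-fold with small standard errors. AT5G55580, annotated as a mitochondrial transcription termination factor family protein, had 361.5, 415.5 and 296 in upf at 30 min against 615.5, 644 and 596 before heat, a log2 change of -0.80 (SE 0.14, limma adjusted p = 1.8e-05). AT1G75490, a DREB-type AP2 factor annotated as an integrase-type DNA-binding protein, had 128.5, 130 and 185 against 224.5, 186 and 217.5, a log2 change of -0.52 (SE 0.21, limma adjusted p = 0.036). The other 6 were AT2G36780, AT2G47560, AT3G15630, AT3G20395, AT5G44260 and ATCG01000, of which AT2G47560, AT3G15630 and AT3G20395 had fallen by 90 min.

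The comparison of heat with and without cycloheximide at 45 and 90 min asked whether the drug's effect lasted past the 30 min the rule used. At 45 min 67 members stood higher with the drug than without it, against 12.1% of all genes tested, and at 90 min 61 did (13.5%). No member stood lower at either time, where 2.48% and 2.77% of all genes did. The median difference was 1.90 at 45 min and 1.76 at 90 min on the log2 scale, beside 0.06 and 0.08 over all genes. All 3 drug libraries lay above all 3 heat-alone libraries for 68 members at each time, against 25.5% and 29.9% of all genes. Of the 225 genes lost alike but not kept, 156 stood higher at 45 min and 137 at 90 min, with medians of 1.34 and 1.15. Falling in upf at 30, 45 and 90 min was shared by 60 members (11.6% of all genes), being higher with the drug at 45 and 90 min by 61 (9.09%), and 53 did all of it (3.98%).

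**Figure D3:**
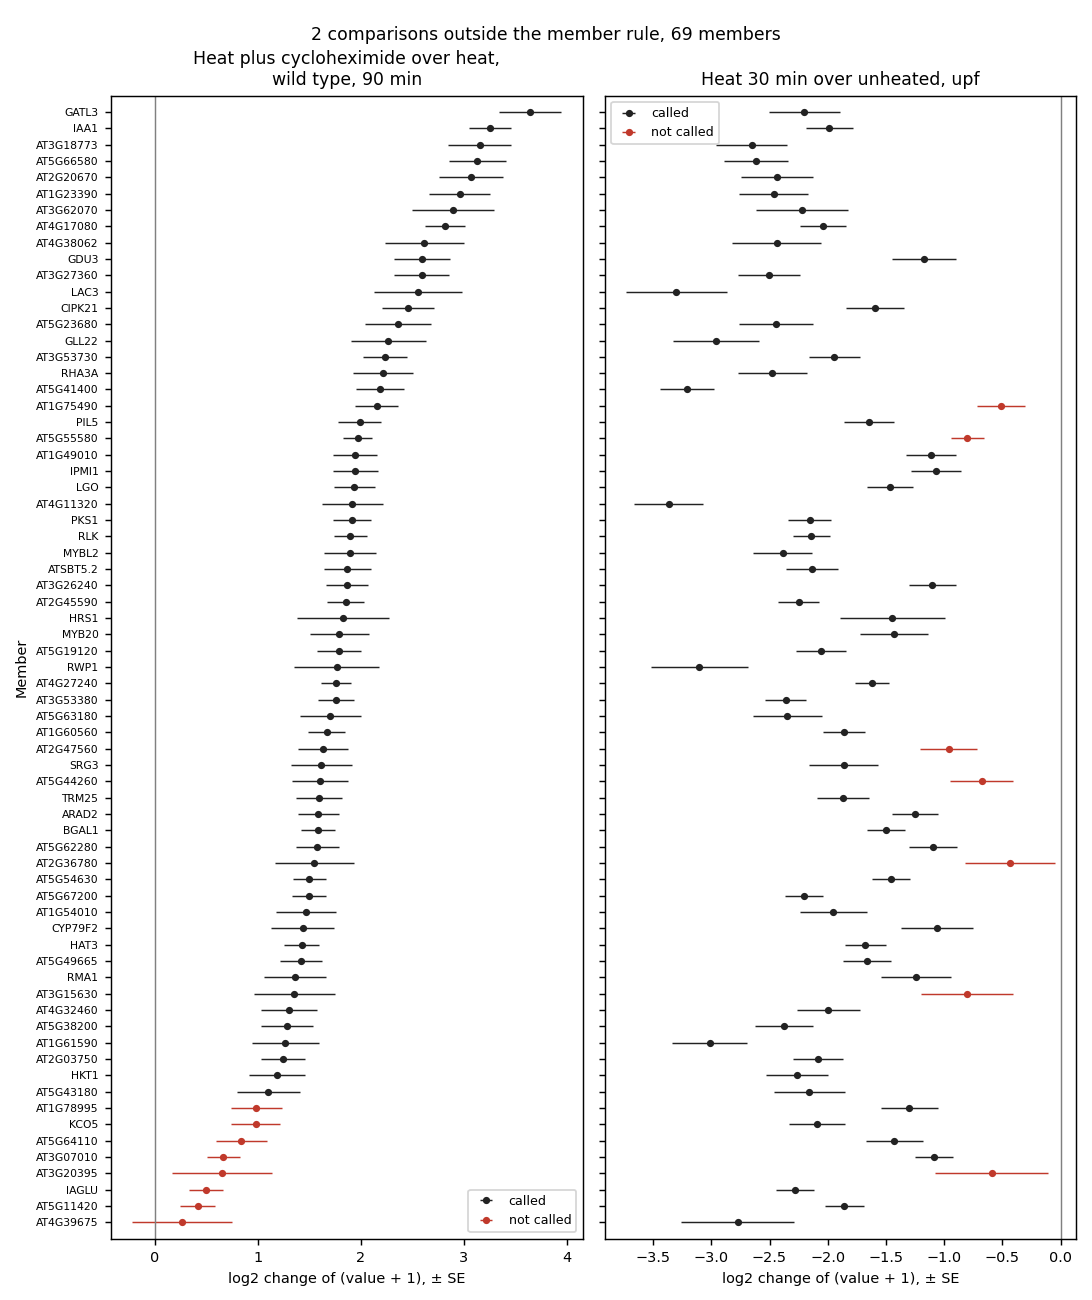
Log2 change of each of 69 members (points, ± SE) for heat plus cycloheximide over heat at 90 min in wild type (left) and for 30 min of heat over unheated in upf (right), ordered by the left panel; red points were not called. In the left panel all lie above 0, with GATL3 highest at 3.64 and AT4G39675 lowest at 0.26; in the right panel all lie below 0, from -3.36 to -0.43.

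Members that regulate transcription stood higher with cycloheximide at both times, as did most members (61 of all 70 were called at both). Roles were given by hand from the annotation with the values known, so counts per role are a description. All 13 regulators stood higher with the drug at both 45 and 90 min. None of the 13 fell between 15 and 45 min or between 45 and 90 min within the drug series. Their median was 81.5% of the unheated level at 90 min with cycloheximide and 22.3% with heat alone. Over all 70 members 16 fell between 15 and 45 min (3.47% of all genes tested) and 15 between 45 and 90 min (2.46%), 24 in one step or the other (5.55%). The other 46, of several roles, fell in neither step. With libraries scaled to equal totals 43 members fell in one step or the other, against these 24. Among the 43 were 3 of the 13 regulators, all 3 falling in the step between 15 and 45 min.

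IAA1 (AT4G14560, chromosome 4, 8360996 to 8362033, plus strand, TAIR10.1), an Aux/IAA repressor of auxin responses, stood highest of the members relative to its unheated level at 90 min with the drug, at 225%. It had 654.5, 568 and 352 normalized counts at 15 min, 422, 552 and 398 at 30 min, 463.5, 452 and 309 at 45 min and 378, 454.5 and 431 at 90 min with cycloheximide. With heat alone it had 195, 194 and 172 before heat, 24, 37 and 24.5 at 30 min, 40.5, 43.5 and 49 at 45 min and 46, 46.5 and 37.5 at 90 min. Every drug library lay above every heat-alone and unheated library. The drug's effect was 3.15 at 45 min (SE 0.20, limma adjusted p = 7.5e-14) and 3.25 at 90 min (SE 0.20, limma adjusted p = 2.3e-14) on the log2 scale. In upf it fell by 1.99 on the log2 scale at 30 min (SE 0.20, limma adjusted p = 3.3e-10).

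PIL5 (AT2G20180), also known as PIF1, is a bHLH factor that phytochrome removes in light and that represses seed germination. It had 834.5, 656 and 740 at 45 min and 805.5, 734 and 617.5 at 90 min with cycloheximide, against 133.5, 125 and 183 and then 150, 178 and 216.5 with heat alone. The unheated libraries had 866.5, 882.5 and 744, so the drug libraries overlapped them. The effect was 2.34 at 45 min (SE 0.21) and 1.99 at 90 min (SE 0.21) on the log2 scale, with limma adjusted p = 1.6e-10 and 3.4e-09.

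MYBL2 (AT1G71030), a small MYB repressor of anthocyanin synthesis, had 716, 832 and 918.5 at 90 min with the drug against 208.5, 191.5 and 266 without it. That is an effect of 1.89 (SE 0.25, limma adjusted p = 2.4e-07). In upf it fell to 94.5, 150 and 110 at 30 min, against 697.5, 573 and 572 before heat. The other MYB-type members were HRS1 (AT1G13300), a repressor in nitrate and phosphate signalling, and MYB20 (AT1G66230), which stood 1.83 and 1.79 higher with the drug at 90 min. The homeodomain-zipper factor HAT3 (AT3G60390), which acts in leaf polarity and shade growth, stood 1.42 higher, and the bHLH gene AT4G38062 2.62 higher. The zinc finger genes AT4G27240, AT5G44260 and AT5G54630 stood 1.76, 1.61 and 1.50 higher, and AT1G49010, a homeodomain-like gene, 1.95 higher. PKS1 (AT2G02950), a phytochrome-binding protein of phototropism, stood 1.91 higher at 90 min and did not fall within the drug series.

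The 3 members of chromatin and the cell cycle likewise stood higher at both times and did not fall in either step. With libraries scaled to equal totals, however, 2 of the 3 fell in a step of the drug series. The histone gene AT3G27360 had 395, 444.5 and 531.5 at 90 min with cycloheximide, 72, 70.5 and 81.5 at 90 min of heat alone and 293, 295 and 260 before heat, so the drug libraries lay above both. The effect at 90 min was 2.59 on the log2 scale (SE 0.27, limma adjusted p = 1.6e-09). A second histone gene, AT3G53730, stood 2.23 higher, and LGO (AT3G10525), an inhibitor of cyclin-dependent kinases, 1.94 higher. Histone genes have near-identical copies, so their counts may be divided among copies.

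Ubiquitin ligase genes were 8 of the 70, and 7 of those are RING fingers of the 373 tested. The most abundant was AT1G23390, a Kelch-repeat F-box gene. It had 5492, 6840 and 4549 at 45 min and 4908.5, 5698 and 8911.5 at 90 min with cycloheximide, against 468, 374.5 and 744 and then 681.5, 688.5 and 1125.5 with heat alone. Unheated libraries had 5211.5, 5096.5 and 4502. The effect was 3.45 at 45 min and 2.96 at 90 min (SE 0.29 each, limma adjusted p = 3.7e-11 and 7.3e-10). AT3G18773 stood 3.15 higher at 90 min, RHA3A (AT2G17450) 2.22, AT5G41400 2.19, AT2G47560 1.63, AT5G49665 1.42 and RMA1 (AT4G03510) 1.36, each of them called. AT3G20395 differed by 0.65 (SE 0.49) and was not called. Within the drug series AT2G47560 fell by 1.39 between 45 and 90 min, and AT3G18773 and RHA3A each by 1.30 between 15 and 45 min.

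**Figure D4:**
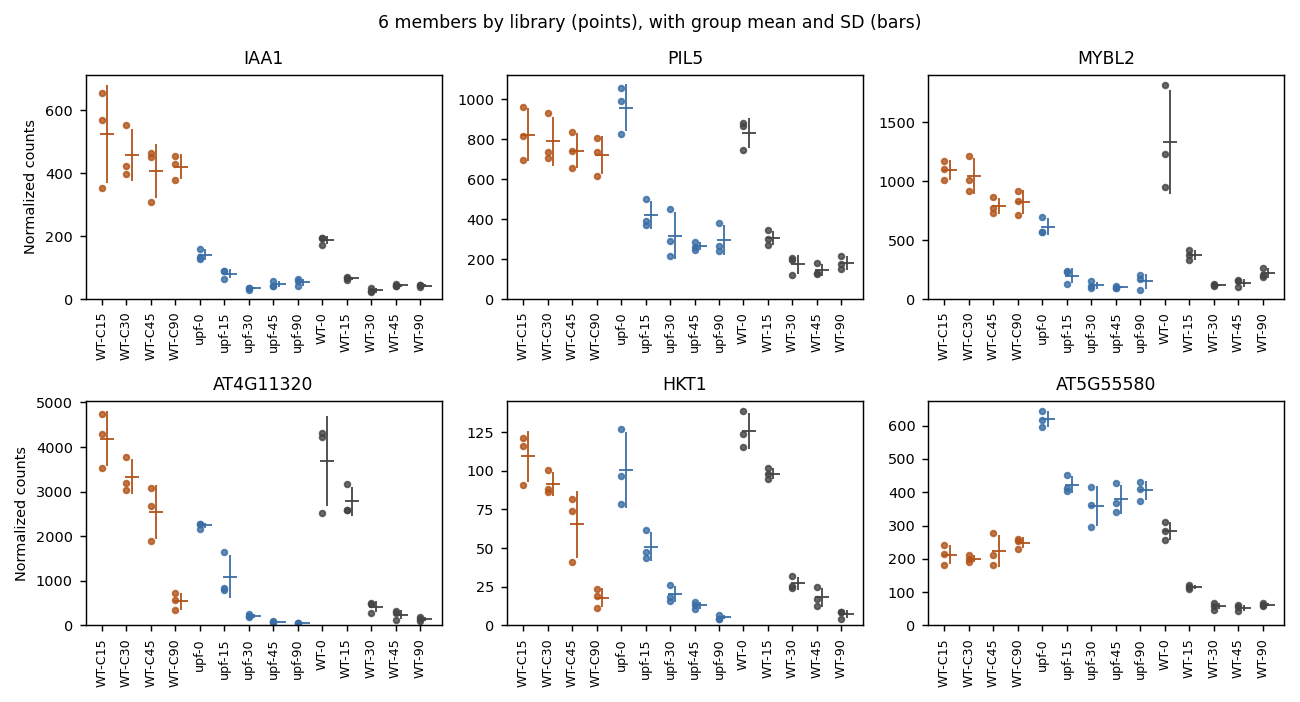
Normalized counts of 6 members in each library (points) with group mean and SD (bars), for wild type with cycloheximide (C), upf, and wild type with heat alone. IAA1, PIL5 and MYBL2 stay up to 90 min with the drug, AT4G11320 and HKT1 drop between 45 and 90 min, and AT5G55580 is higher in every upf group than in the matching wild-type group.

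Genes of the cell wall were mostly lower again by 90 min with the drug. All 10 such members had fallen in upf at 30 min, though the AT3G07010 call was lost when any of 3 libraries was left out. With the drug 9 stood higher at 45 min and 7 at 90 min, and 8 fell in a step of the drug series. Their median was 23.8% of the unheated level at 90 min with cycloheximide and 9.21% with heat alone. The root marker sum fell over the same steps with the drug, to 4431 at 90 min against 35667 at 15 min, and its part was not tested.

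BGAL1 (AT3G13750), a cell wall beta-galactosidase and the most abundant member, had 6805.5, 7567 and 4841.5 at 45 min and 3247, 3618.5 and 3109 at 90 min with cycloheximide. With heat alone it had 1212.5, 1490.5 and 1276 and then 1083, 1056.5 and 1187, and before heat 13871.5, 14587 and 14773. The groups did not overlap at either time. The effect was 2.25 at 45 min and 1.58 at 90 min (SE 0.16 each, limma adjusted p = 1.2e-12 and 1.8e-09), and the step between these times within the drug series, -0.92, missed 2-fold.

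GATL3 (AT1G13250), a galacturonosyltransferase-like protein, had the highest drug effect of all members at 90 min, with 75, 87.5 and 121 against 2, 9 and 13. The difference was 3.64 on the log2 scale (SE 0.30, limma adjusted p = 1.5e-11). The heat-alone values are near the 10 used as the filter, so its size and rank rest on low counts. Between 45 and 90 min with the drug GATL3 fell by 1.08 (SE 0.30, limma adjusted p = 0.016), a call lost when any of 3 libraries was left out. LAC3 fell by 1.56 in that step, AT5G63180 (pectin lyase-like) by 1.39, ARAD2 (AT5G44930, an arabinosyltransferase-like exostosin) by 1.30, AT5G11420 (of unknown function) by 1.21 and AT3G07010 (pectin lyase-like) by 1.08. The LAC3 call in that step was lost when either of 2 libraries was left out, and that of AT3G07010 when 1 was. AT5G11420 was not called at either time, with an effect of 0.88 at 45 min (SE 0.17) and 0.41 at 90 min (SE 0.17). At 90 min AT3G07010 (0.66) and the peroxidase gene AT5G64110 (0.84) were not called. RWP1 was among those called, with 490, 414 and 637 at 90 min with the drug against 155, 169 and 124 without it.

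All 3 proteases, 2 of 4 genes of specialised metabolism and all 3 genes grouped under transport (HKT1, KCO5 and the glutamine dumper gene GDU3) fell in a step of the drug series. The GDU3 call, between 15 and 45 min, was lost when either of 2 libraries was left out. AT4G11320 had 2681.5, 3078.5 and 1884 at 45 min with cycloheximide and 337.5, 564 and 724 at 90 min, a fall of 2.27 on the log2 scale (SE 0.30, limma adjusted p = 1.1e-06), the deepest of any member in that step. With heat alone it had 128.5, 318.5 and 282 at 45 min and 95, 143 and 185.5 at 90 min. The drug libraries were above the others at both times. AT5G19120, an aspartyl protease family gene, fell by 1.14 in that step, and the subtilase ATSBT5.2 (AT1G20160) by 1.40.

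HKT1 (AT4G10310), the sodium transporter that unloads the root xylem, had 74, 81.5 and 41 at 45 min and 11.5, 19 and 23.5 at 90 min with cycloheximide. With heat alone it had 17, 25 and 12.5 and then 8.5, 4.5 and 9. It fell by 1.80 within the drug series (SE 0.27, limma adjusted p = 9.8e-06), by 1.15 in upf (SE 0.27, limma adjusted p = 0.0081) and by 1.20 with heat alone (SE 0.27, limma adjusted p = 0.0042). The potassium channel gene KCO5 (AT4G01840) stood 1.73 higher with the drug at 45 min, differed by 0.98 at 90 min, just under 2-fold (1.36 without replicate 1 at 90 min of heat alone and 1.07 without replicate 1 at 90 min with the drug, both called), and fell by 1.17 between 15 and 45 min with the drug. CYP79F2 (AT1G16400), of aliphatic glucosinolate synthesis, fell in the same 3 series, and it may share counts with its neighbouring close relative. IPMI1 (AT3G58990), of the same pathway, did not. It stood 1.95 higher with the drug at 90 min, with an 86.2% mean of its unheated level.

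The 6 protein kinases all stood higher with the drug at both times. CIPK21 (AT5G57630), a kinase of calcium-sensor signalling, stood 2.46 higher at 90 min, the lectin receptor kinase RLK (AT2G37710) 1.90, AT2G45590 1.85, AT3G53380 1.76, AT5G67200 1.49 and AT1G61590 1.27. RLK alone fell between 45 and 90 min, by 1.25. The next members are of other or unknown roles, except AT1G54010, which was counted above with specialised metabolism. AT4G17080, annotated as a histone methyltransferase of the SET7 kind, had 152.5, 164 and 162 at 90 min with the drug against 19.5, 17.5 and 30 without it, groups that did not overlap, an effect of 2.82 on the log2 scale (SE 0.20, limma adjusted p = 2.8e-13). AT1G54010, a GDSL lipase gene beside its relative GLL22 with which it may share counts, had 286, 269.5 and 226 against 88, 79 and 116, an effect of 1.47, and it fell by 1.33 between 15 and 45 min and by 1.15 between 45 and 90 min within the drug series, the second a call lost without replicate 1 at 45 min, where the change was -0.95. AT2G20670, of unknown function (DUF506), had 3712, 4138.5 and 5073 at 90 min with the drug against 522.5, 485 and 513.5 without it, and stood above its unheated 3616.5, 3404.5 and 3054.5. SRG3 (AT3G02040), a phosphate-starvation phosphodiesterase, had 1078.5, 1263.5 and 1934.5 against 457, 454 and 439.5, with a wide unheated spread of 895.5, 2452.5 and 3149.

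IAGLU (AT4G15550), which attaches glucose to the auxin indole-3-acetic acid, showed a drug effect of 1.29 at 45 min (SE 0.16) and of 0.50 at 90 min (SE 0.16, limma adjusted p = 0.012, under 2-fold). It had 887.5, 788.5 and 993.5 at 90 min with the drug and 589.5, 625.5 and 671.5 without it. It is one of 6 members called at 45 min and not at 90 min. Whether the drug's effect differed between the 2 times was tested as an interaction in the same fit, an addition made after the data were seen. That test called 1 member lower, ARAD2, where 0.178% of all genes were called lower, and 0 members higher, where 0.0482% of all genes were. At an unadjusted p under 0.05 limma gave 11 members, 10 of them lower at 90 min, among 1775 of all genes tested (8.56%).

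Steps without the drug after 45 min were few. With heat alone 5 members fell between 45 and 90 min (1.6% of all genes) and 1, AT5G23680, rose (0.0578%). In upf 5 fell (0.911%). Leaving out single libraries moved the first count between 2 and 8, so it is not firm. The test of whether the step differed between upf and wild type, added after the data were seen, called 0 genes by limma, with 562 at an unadjusted p under 0.05 (2.71%), of which 7 are members.

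The comparison of upf with wild type in heat asked which members' levels differ where NMD is impaired. At 45 min 6 members stood higher in upf (8.41% of all genes) and 2 lower (1.97%), and at 90 min 6 stood higher (8.82%) and 5 lower (1.99%). The shares of members higher, 8.57% at each time, are near those of all genes tested. Of the 225 genes lost alike but not kept, more stood higher, 36 at 45 min (16%) and 42 at 90 min (18.7%). The share of members lower at 90 min, 7.14%, was above the 1.99% of all genes. Of the genes lost alike but not kept, 4 stood lower at 45 min (1.78%) and 13 at 90 min (5.78%). The members' median difference was -0.01 at 45 min and -0.13 at 90 min.

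In upf 5 members stood higher at both times. AT5G55580 had 426.5, 341 and 367.5 at 45 min and 410.5, 374.5 and 430.5 at 90 min in upf, against 42.5, 60.5 and 54.5 and then 62.5, 58.5 and 67 in wild type. The groups did not overlap, and the difference was 2.83 at 45 min and 2.67 at 90 min on the log2 scale (SE 0.14 each, limma adjusted p = 2e-16 and 6.9e-16). It was also higher in unheated upf, at 615.5, 644 and 596 against 284.5, 311.5 and 257.5 in unheated wild type. Of its 3 listed transcripts the first carried nearly all of this, with a mean of 393 in upf at 90 min. ARAD2 stood 2.77 and 1.79 higher at the 2 times, AT1G75490 1.70 and 1.67, GATL3 1.44 and 2.11, and AT3G07010 1.28 and 1.46. Before heat the authors' deposited table has 0.82, 0.29, 0.27 and -0.10 for the main transcripts of these 4 (upf over wild type, read as log2). AT3G26240 was called at 45 min alone and the glutamine dumper gene GDU3 (AT5G57685) at 90 min alone.

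In upf 2 members stood lower at both times. IAGLU had 184.5, 156 and 207.5 at 90 min in upf against 589.5, 625.5 and 671.5 in wild type, a difference of -1.79 (SE 0.16, limma adjusted p = 9.4e-11), and it was lower before heat too, at 851, 947.5 and 1042 against 1601, 2041 and 2082. AT4G11320 differed by -1.37 at 45 min and -1.38 at 90 min. SRG3 (-1.49), CYP79F2 (-1.15) and RWP1 (-1.09) were lower at 90 min. The RWP1 call was lost when any of 5 libraries was left out and that of CYP79F2 when either of 2 was. Some of these differences were present before heat. For the main transcripts in unheated seedlings, the authors' deposited table has -1.72 for SRG3, -1.41 for CYP79F2, -0.89 for AT4G11320 and -0.16 for RWP1 (upf over wild type, read as log2). Root marker sums were lower and seed marker sums higher in upf than in wild type in heat as well, by the median libraries given above, and their part was not tested.

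The authors' deposited table of transcript comparisons, for the main transcript of 69 members, has 62 lower in upf at 30 min and 62 at 90 min by the same thresholds. Its fold changes were read as log2, since their slope on the fitted log2 changes was 0.972 to 1.038. It calls 66 higher with cycloheximide at 45 min and 60 at 90 min. For upf over wild type at 90 min, the authors' deposited table has 6 higher and 4 lower.

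Relatives of the members were compared by lists chosen from the annotation. Of 23 Aux/IAA genes tested 10 stood higher with the drug at 45 min, and IAA1 is the one member. SHY2 (IAA3), which stood 3.20 higher at 45 min, was not lost to 25% at 30 min. ATAUX2-11 (IAA4), 3.23 higher, had fallen to 25% or less within 15 min. Of 58 SAUR genes tested, small auxin-induced RNAs, 32 stood higher with the drug at 45 min and 39 had fallen in upf at 30 min, yet none is a member. Of these 58 genes 18 were at 100 or more before heat, and 15 of the 18 were lost within 15 min. Members were 70 of the 13901 genes at 100 or more before heat, or 0.504%. Counted likewise at 100 or more, none of 286 ribosomal protein genes and none of 127 pentatricopeptide genes was a member. At so low an overall share, a count of 0 in lists of this size says little. The same holds for the counts of 0 in 38 AP2/ERF genes as named by annotation, 50 cyclins, 12 clock genes, 12 mRNA decay genes and 5 known NMD targets and factors. The AP2/ERF list missed the member AT1G75490, an AP2 factor annotated under another name. Other lists held 7 of 805 genes annotated as kinases (0.87%), where PKS1 counts as a kinase substrate, 7 of 260 RING fingers (2.69%), 3 of 61 MYB factors (4.92%), and 1 each of 40 homeobox, 60 bHLH, 81 F-box and 16 light and shade genes.

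Genes with few exons were common among the members. Of 69 with an annotated transcript, 26 (37.7%) have 1 exon, against 98 of 225 genes lost alike but not kept (43.6%), 44 of 90 lost within 15 min (48.9%) and 1451 of 13828 genes at 100 or more (10.5%). The median was 2 exons, as in both lost sets, against 5 over all. Introns summed to a median of 235 bases, against 92 in the genes lost but not kept and 787 over all. Transcript, coding and 3′ UTR lengths were near the background, at medians of 1629, 1146 and 287 bases against 1778, 1233 and 274. An upstream ATG in the 5′ UTR was found in 65.2% of the members and 63.1% over all. The rule did not use exon numbers, and the low numbers were shared with the genes that were lost alike but not kept.

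**Figure D5:**
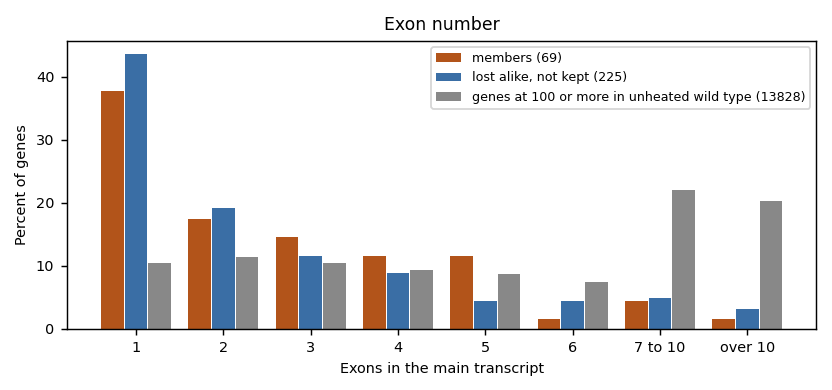
Percent of genes by the number of exons in the main transcript, for 69 members, 225 genes lost alike but not kept, and the genes at 100 or more in unheated wild type. Genes with 1 exon make up 37.7%, 43.6% and 10.5% of the 3 sets.

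Short words in the 3′ UTR were counted on the transcript strand. TGTANATA, the core of sites bound by Pumilio proteins, which act in mRNA decay and translation, was in 10 of 69 members (14.5%), 16.5% of genes lost but not kept, 34.4% of those lost within 15 min and 9.44% over all. ATAGATT, a part of the downstream element known from SAUR transcripts, was in 6 (8.7%), against 4.6% over all, and ATTTA, the AU-rich word, in 63.8%, against 53.4%. Sites in 4 members described above are shown, read 5′ to 3′ from TAIR10.1 (RefSeq), with the word in capitals. A match is a description of the letters.
PIL5, chr2:8704181-8704208, minus strand: agacctaacaTGTATATAtatcgccatc
BGAL1, chr3:4515946-4515973, plus strand: gtgatttataTGTAAATAagcttgggaa
AT1G75490, chr1:28336744-28336771, plus strand: aggatatataTGTAAATAaacaccagtt
AT5G63180, chr5:25341054-25341081, minus strand: tgcgcatgtgTGTATATAcatataatat
The PIL5 site starts 247 bases into a 421-base 3′ UTR and that of BGAL1 200 bases into 722. PIL5 was held with the drug to 90 min, and AT5G63180 fell in both steps of the drug series, so the word was present in members of both courses.

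Words in the promoter were counted on both strands in the 250 bases before each annotated start. CACGTG, the G-box, was in 7 of 69 members (10.1%) and 7.8% over all. TATAAA was in 43.5% against 45.5%, and AAAATATCT, the evening element, in 3 members (4.35%) against 2.4%. TGGGCC, common before ribosomal and other housekeeping genes, was in 5.8% of the members and 6.67% of the genes lost but not kept, against 18.5% over all. TGTCTC and TGTCGG, which auxin response factors bind, were in 7.25% and 2.9% against 10.5% and 4.92%. GAANNTTC, from the heat shock element, was in 10.1% against 9.21%, and AAACCCTA in 1.45% against 3.65%. The windows of GATL3 and AT1G75490 hold a G-box, in capitals, and are shown since both genes stood higher in upf than in wild type at 45 and 90 min. The other 3 such members lack these letters in the window. The other members with a G-box, AT3G27360, HKT1, AT5G11420, AT5G19120 and AT5G63180, were not called higher in upf at either time.
GATL3, chr1:4530223-4530472, minus strand: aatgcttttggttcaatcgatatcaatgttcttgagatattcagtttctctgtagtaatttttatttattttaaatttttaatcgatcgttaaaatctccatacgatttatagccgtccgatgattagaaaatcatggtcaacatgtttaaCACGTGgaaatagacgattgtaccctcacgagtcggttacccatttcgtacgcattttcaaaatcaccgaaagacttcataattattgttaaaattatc
AT1G75490, chr1:28335252-28335501, plus strand: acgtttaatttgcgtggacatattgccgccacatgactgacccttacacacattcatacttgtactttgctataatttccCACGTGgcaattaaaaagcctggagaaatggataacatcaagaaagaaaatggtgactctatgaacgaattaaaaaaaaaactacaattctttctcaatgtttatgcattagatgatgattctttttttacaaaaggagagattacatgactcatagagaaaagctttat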

How the data were processed

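Per the submitters' processing notes, kallisto, sleuth and TAIR10 were used in making the deposited values; their roles and versions were not stated. The deposited values are normalized counts per transcript, treated here as a score since they are not whole reads, in 84 columns, 2 lanes for each of 42 libraries; no count test was run on them, although counts had been assumed in the design. The authors' deposited tables of comparisons hold fold changes, read as log2, and adjusted p-values. Lanes were averaged and transcripts summed per gene, and 99.6% of 48359 transcripts matched the RefSeq annotation of TAIR10.1. Replicates are biological repeats of pooled seedlings per the labels; whether they were grown apart is not stated, so p-values measure the spread between these samples.

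The test was limma-trend (limma 3.58.1, R 4.3.3) on log2(value + 1), with all 42 libraries in one fit, on 20747 genes with at least 10 in 3 libraries. P-values were adjusted by the Benjamini-Hochberg method over all of these, and a call needed adjusted p under 0.05 and a 2-fold change. Fold changes on this scale understate those of low genes. Simulated data for WT-C45 against WT-45 on 20747 genes were counted at an adjusted p under 0.05, without the 2-fold bound. They gave 49 of 50 genes changed by 2 on the log2 scale and 42 of 50 changed by 1, with 10 of 20547 unchanged genes. The changed genes were drawn only from those above a set mean level, so recovery of low genes was not measured. For cycloheximide at 90 against 45 min, deviations of same-numbered libraries were weakly correlated (0.115 to 0.228). Across the comparisons these correlations ran from -0.263 to 0.432, so whether the numbers pair samples is not known. The main fit did not pair them.

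The members and lists were chosen with earlier results of these data known, and roles were given with the values known. The text names the 8 members highest before heat, the 8 with the deepest wild-type loss at 30 min, the 6 largest and 6 smallest falls in upf at 30 min, the 6 highest and 6 lowest drug effects at 90 min, members on the lists, and genes next to the bounds; others were named after their values were seen. Motifs and exons are those of 1 representative transcript per gene. Python 3.11.15 with pandas 2.3.3 was used otherwise. Pseudocounts, filters, scalings, lanes, the replicate block and left-out libraries were the alternatives.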

Additional observations from a re-analysis of the deposited data

Results flagged for a closer look

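ARAD2 (AT5G44930) was flagged because its drug effect differed between the times by a test of the difference itself, an interaction in the limma fit that was added after the data were seen. The effect was 1.59 at 90 min and 3.07 at 45 min on the log2 scale, a difference of -1.48 (SE 0.28, limma adjusted p = 0.005). With cycloheximide it had 52.5, 53.5 and 38.5 normalized counts at 90 min and 123, 127.5 and 106 at 45 min, against 13, 14.5 and 18.5 and then 11.5, 15 and 13.5 with heat alone. The groups did not overlap at either time, and the change lay in the drug series. It was the 1 member called of 70. The root marker sum also fell in the drug series between these times, and its part was not tested.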

How the results depend on the processing

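The list depended on its own settings. It held 153 genes with libraries scaled to equal totals (33 of the 70 among them), 177 with a cycloheximide bound of 50%, 17 with a bound of 100%, and 67 to 88 when 1 library was left out. Scaling to equal totals moved the median of all genes from -0.07 to -0.62 in upf at 30 min and from 0.08 to 0.50 for the drug effect at 90 min. It gave 40 members fallen between 15 and 45 min with the drug (16 as reported) and 42 between 15 and 30 min in upf (25). Over all genes it called 6381 lower in upf at 30 min (2832 as reported) and 5239 higher with the drug at 90 min (2799), where a pseudocount of 10 gave 1805. The 5 members fallen between 45 and 90 min with heat alone became 1 with a pseudocount of 10, 2 with only these groups fitted, and 2 to 8 with 1 library left out: 8 without WT-45 replicate 1 or WT-90 replicate 3, 2 without WT-45 replicate 2 or WT-90 replicate 2, and 3 without WT-90 replicate 1. The 5 in upf became 3 with a pseudocount of 10 or lane 2 alone, 1 with only these groups fitted, and 3 to 5 with 1 library left out, 3 being without upf-90 replicate 2. The cause was not tested. Leaving out 1 library gave 60 to 62 members fallen in upf at 30 min, 66 to 67 higher with the drug at 45 min and 60 to 64 at 90 min. Between 15 and 45 min with the drug it gave 12 to 22, the lowest without WT-C45 replicate 3. With the replicate block the counts were 62, 67 and 61, and it moved no other count of members by over 1.5 times. For single members, 8217 values under alternatives had the same call, 109 gained one, 74 lost one and none changed sign. Low members are limited by depth, which the values do not give.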
